A study of Mus musculus with 9 samples.

Results

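The 45 genes described here encode the machinery of mitosis, from the kinases and cyclins that start it to the proteins that cut the daughter cells apart. They were listed by name and function, with earlier results of these data known, and are 45 of the 18755 genes counted in the series. By role they comprised 9 genes of mitotic entry, 5 of spindle assembly, 4 of the chromosomal passenger complex, 5 of the spindle checkpoint, 7 of the centromere and kinetochore, 4 of anaphase onset, 7 of condensin and chromosome structure and 4 of cytokinesis. The samples were 9 primary tumors of 4T1, a mouse mammary carcinoma cell line, grown in female BALB/c mice aged 6 to 10 weeks that had received 1000000 cells in a mammary fat pad. From day 15 after injection, 6 mice were given 50 mg/kg of BI 853520 (BI in the following), an inhibitor of focal adhesion kinase, and 3 mice were given its vehicle, 0.5% Natrosol, for 5 days. Each tumor gave 1 library of messenger RNA, and the authors had excluded tumors whose RNA was not good enough. The labels number the vehicle tumors 1 to 3 and the BI tumors 4 to 9. Counts on genes summed to 21727879, 22589489 and 33850245 in the vehicle tumors and to between 16931607 and 22349873 in the BI tumors. The lowest count of any of the 45 genes in any tumor was 198, for Cdc25c in a BI tumor, so that none of them was near the limit of detection.

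Entry into mitosis is driven by the kinase CDK1 bound to a B-type cyclin, which is switched on by CDC25 phosphatases and then phosphorylates condensin, the nuclear lamina and spindle proteins. Chromosomes attach to the spindle at kinetochores, and the spindle checkpoint (BUB and MAD proteins) blocks the ubiquitin ligase APC/C and its activator CDC20 until every kinetochore is attached, after which securin is destroyed, separase cuts cohesin and the chromosomes part. Most of these genes are transcribed mainly in late S phase, G2 and mitosis, through promoters with CCAAT boxes, bound by NF-Y, and a cell cycle genes homology region (CHR), bound by the MuvB core of the DREAM, B-MYB and FOXM1 complexes, so their RNA in a tumor is widely read as a measure of cycling cells.

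Promoter sequence was examined because the genes are known to share these elements and, as described below, shared an order across the tumors. Windows from 250 bases before to 50 bases after the start site were available from RefSeq (assembly GRCm38.p6, not the mm9 assembly on which the reads were counted) for 37 of the 45 genes. The windows were searched on both strands for the letters TTTGAA and TTCGAA, the forms of the CHR core, and CCAAT. The following stretches, the 200 bases before the start site in the direction of the gene, are shown as examples. In each of the 6 role groups with a CHR match in this stretch, the gene with the smallest edgeR p among those with such a match is printed, and in all of these groups but spindle assembly other genes hold one as well. Capitals mark the matches, where TTCAAA and ATTGG are the reverse strand of TTTGAA and CCAAT. They lie at chr11:99024190-99024389 (minus strand), chr3:27153879-27154078 (minus strand), chr2:118598011-118598210 (plus strand), chr8:22185820-22186019 (minus strand), chr10:69352913-69353112 (minus strand) and chr4:118437344-118437543 (minus strand).
Top2a: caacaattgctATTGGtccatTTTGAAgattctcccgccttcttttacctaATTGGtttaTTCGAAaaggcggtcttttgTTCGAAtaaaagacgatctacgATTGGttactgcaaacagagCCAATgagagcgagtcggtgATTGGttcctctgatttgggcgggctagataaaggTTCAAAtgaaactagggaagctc
Ect2: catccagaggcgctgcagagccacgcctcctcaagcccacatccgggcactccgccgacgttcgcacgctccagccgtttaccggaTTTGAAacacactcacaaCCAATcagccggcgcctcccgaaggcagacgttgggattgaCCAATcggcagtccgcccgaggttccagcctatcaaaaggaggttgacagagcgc
Bub1b: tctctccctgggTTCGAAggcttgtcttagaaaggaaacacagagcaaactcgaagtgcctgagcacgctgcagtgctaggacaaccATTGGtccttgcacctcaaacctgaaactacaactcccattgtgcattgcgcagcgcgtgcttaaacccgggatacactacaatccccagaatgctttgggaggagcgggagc
Ckap2: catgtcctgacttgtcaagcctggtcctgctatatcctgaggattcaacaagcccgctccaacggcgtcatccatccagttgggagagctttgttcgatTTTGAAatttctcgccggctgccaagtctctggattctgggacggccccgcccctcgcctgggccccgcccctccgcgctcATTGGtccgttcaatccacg
Cdk1: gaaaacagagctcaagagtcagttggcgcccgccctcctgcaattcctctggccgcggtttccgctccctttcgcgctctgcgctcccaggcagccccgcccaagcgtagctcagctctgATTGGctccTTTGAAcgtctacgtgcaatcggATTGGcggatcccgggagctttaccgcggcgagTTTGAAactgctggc
Cdc20: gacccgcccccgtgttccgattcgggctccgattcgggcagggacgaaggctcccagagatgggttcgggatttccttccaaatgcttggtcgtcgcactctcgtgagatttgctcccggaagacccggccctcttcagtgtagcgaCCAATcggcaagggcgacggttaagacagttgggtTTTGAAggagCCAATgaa

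A CHR core was present in 28 of the 37 genes with a window (75.7%), against 21.7% of the 27025 genes with a window in the table and 16.7% of the 11017 of them that were tested for expression. The form TTTGAA was found in 26 genes (70.3%, against 20.2% of all genes with a window) and TTCGAA in 4 (10.8%, against 1.8%), with some genes holding both. CCAAT was found in 28 genes (75.7%, against 41.1%), and at least 2 CCAAT matches in 18 (48.6%, against 13.3%). A CHR core and a CCAAT together were found in 26 of the 37 genes (70.3%), against 8.61% of all genes with a window and 6.89% of those tested. Matches of different motifs overlapped in 1 case. The 28 genes with a CHR core had a median log2 fold change of -0.43 between BI and vehicle tumors, and 15 of them fell at the threshold used below, and the 9 without had a median of -0.34, and 3 fell, where 14.1% of all genes tested fell. The ranges of both overlapped, from -0.85 to -0.06 with a CHR core and from -0.60 to -0.23 without. A difference between genes with and without a CHR core was not tested. A match in such a window is a description of sequence and not evidence of binding.

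The question put to the counts was whether RNA of the mitotic machinery differed between tumors of BI-treated and vehicle-treated mice. All 45 genes had a lower estimated level with BI (negative log2 fold changes were found for 50.5% of the 13966 genes tested), and 23 of the 45 fell (adjusted p up to 0.05 by the quasi-likelihood test of edgeR, corrected after Benjamini-Hochberg over all genes tested, 3 vehicle and 6 BI tumors), against 14.1% of all genes tested that fell. None rose, against 14.6% of all genes tested, and at an unadjusted p below 0.05 37 of the 45 genes were lower and again none higher, against 20.3% and 20.5% of all genes tested. The median log2 fold change of the 45 genes was -0.42, against 0.00 for all genes tested, and single genes ranged from -0.85 for Anln to -0.03 for Incenp. The differences were therefore mostly modest in size. At the cutoffs given in the study's methods (unadjusted p of at most 0.05 and 0.58 or more in either direction on the log2 scale), 7 of the 45 genes fell and 0 rose, against 3.57% and 9.59% of all genes tested. In 12 genes every BI tumor lay below every vehicle tumor, an order found in 14% of all genes tested. In bulk RNA, fewer cells in mitosis and less of these RNAs per cell cannot be told apart. The calls depended on individual vehicle tumors: without vehicle replicate 1, as without vehicle replicate 3, 7 of the 45 genes fell (with 9.13% and 8.30% of all genes then falling), and the other 16 were lost in both cases. The 7 genes that fell whichever tumor was left out were Top2a, Cdc25b, Bub1b, Cenpf, Anln, Cenpe and Ect2. The count at the study's cutoffs was 4 with vehicle replicate 1 or 3 or BI replicate 5 left out, 11 without BI replicate 4 and 14 without vehicle replicate 2. The share of all genes at those cutoffs is not given for these fits.

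**Figure D1:**
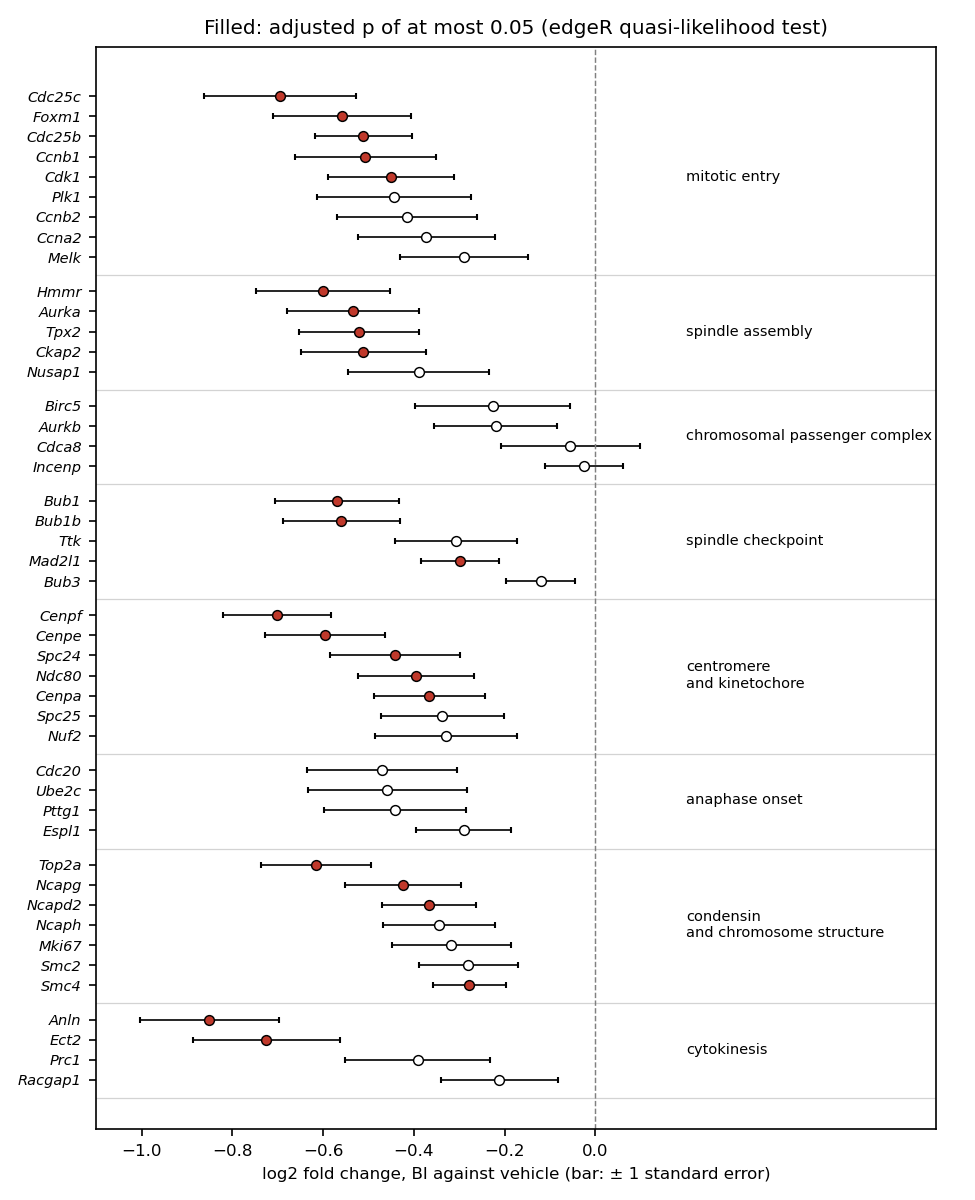
The log2 fold change of each of the 45 genes between BI and vehicle tumors (horizontal axis, points, with bars of 1 standard error), grouped by role, where filled points had an adjusted p of at most 0.05. Every point lies below 0, Incenp and Cdca8 lie nearest to it, and Anln lies farthest, at -0.85.

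The genes followed a common order across tumors. In each tumor the median over the 45 genes of the log2 ratio to the vehicle mean was 0.16, -0.26 and 0.07 in vehicle replicates 1, 2 and 3, and -0.23, -0.86, -0.57, -0.46, -0.30 and -0.17 in BI replicates 4 to 9, while the same median over all genes tested lay between -0.02 and 0.00 in every tumor. BI replicate 5 was the lowest of the 9 tumors in 45 of 45 genes, which held for 16.7% of all genes tested. Vehicle replicate 2 was the lowest vehicle tumor in 45 of 45 genes, against 35.8% of all genes tested, and vehicle replicate 1 the highest vehicle tumor in 43 of 45, against 35.3%. At the other end of the BI group, replicate 9 was the highest BI tumor in 33 of 45 genes, against 19% of all genes tested. Of the 45 genes, 22, 45, 41, 40, 32 and 16 were below all 3 vehicle tumors in BI replicates 4 to 9, so the groups met in the range between vehicle replicate 2 and BI replicates 4, 8 and 9. Vehicle replicate 2 and BI replicate 5 also had the largest share of their counts in the 10 most abundant genes within their groups, 4.94% against 4.20% to 4.30% in the other vehicle tumors and 5.45% against 4.86% to 5.13% in the other BI tumors, and the part of this in the order of the tumors was not tested. Without BI replicate 5 the median log2 fold change was -0.33 and 26 of the 45 genes fell, against 14.2% of all genes tested. Without vehicle replicate 2 the median was -0.52 and 29 of the 45 fell, against 11.0% of all genes tested.

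**Figure D2:**
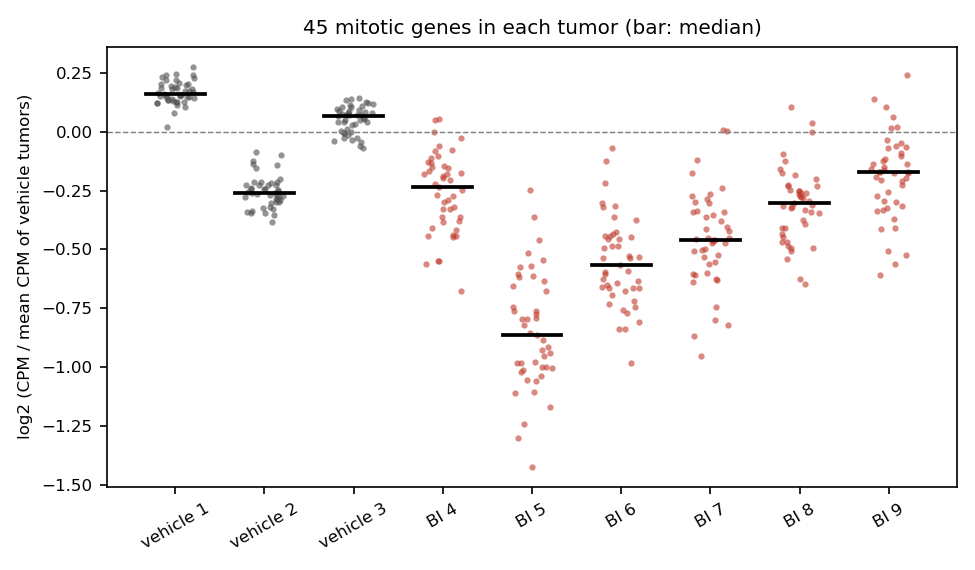
The log2 ratio of each of the 45 genes to its mean in the vehicle tumors (vertical axis), for every tumor (horizontal axis), with a bar at the median. Vehicle replicate 2 lies at -0.26, close to BI replicates 4, 8 and 9, and BI replicate 5 lies lowest, at -0.86.

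Of the 9 genes of mitotic entry 5 fell with BI (Cdk1, Ccnb1, Cdc25b, Cdc25c and Foxm1), against 14.1% of all genes tested. The median log2 fold change of the group was -0.45. Cdk1, the kinase that drives the step, had a level of 176, 125 and 144 CPM (its reads as a share of the library) in the vehicle tumors and between 78.0 and 127 CPM (median 109) in the BI tumors. The groups overlapped, since BI replicates 8 and 9 lay just above vehicle replicate 2. Its level fell by 26.8% (log2 fold change -0.45, standard error 0.139, adjusted p = 0.0307, edgeR). In the exact permutation test of log2 CPM (two-sided, all 84 divisions of the tumors) its p was 0.0714. Cenpa, Ndc80 and Ncapg, which also fell in edgeR, had the same p of 0.0714 in that permutation test. The other genes of the 45 that fell had 0.0238 or 0.0476 in it. Cdc25b, a phosphatase that activates CDK1, had 93.1, 76.9 and 84.7 CPM in the vehicle tumors and between 50.6 and 74.0 CPM (median 57.6) in the BI tumors. All 6 BI tumors were below the 3 vehicle tumors, and the level fell by 29.9% (log2 fold change -0.51, standard error 0.107, adjusted p = 0.00434, edgeR). Its relative Cdc25c, the least abundant of the 45 in counts, had a log2 fold change of -0.69, also without overlap, and Foxm1, the transcription factor for G2 and mitotic genes, one of -0.56. The cyclin Ccnb1 fell with a log2 fold change of -0.51. The other B-type cyclin of the list, Ccnb2 (-0.42), did not pass the threshold in edgeR's quasi-likelihood test. Neither did Ccna2 (-0.37), the cyclin of S phase and early mitosis, or Plk1 (-0.44), the polo-like kinase. Ccnb2 and Plk1 passed with edgeR's likelihood ratio test and DESeq2, in which 7 of the 9 genes fell, against 14.9% and 15.4% of all genes tested. The kinase Melk had the largest p of the group, with 47.8, 34.2 and 44.2 CPM in the vehicle tumors and between 26.3 and 41.0 CPM (median 35.9) in the BI tumors. Only 2 BI tumors lay below every vehicle tumor for Melk (log2 fold change -0.29, adjusted p = 0.144, edgeR). Exons of Cdc25b and Ccna2 overlap those of Spef1 and Exosc9 on the other strand, exons of Foxm1 overlap those of 4933413G19Rik on the same strand, and the sources used here do not say whether counting used the strand. Without vehicle replicate 1 or vehicle replicate 3, 1 gene of the group fell (Cdc25b), and without BI replicate 7, 3 did. Of all genes tested, between 8.30% and 11.5% fell in these cases.

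Of the 5 spindle assembly genes 4 fell, against 14.1% of all genes tested, and the median log2 fold change of the group was -0.52. The kinase Aurka (-0.53), which matures centrosomes, and Tpx2 (-0.52), which activates it on spindle microtubules, both fell with every BI tumor below every vehicle tumor. So did the microtubule protein Ckap2 (-0.51), and this order was found in 14% of all genes tested. Hmmr, a hyaluronan receptor that also binds spindle microtubules, had 134, 99.2 and 133 CPM in the vehicle tumors and between 58.7 and 101 CPM (median 80.4) in the BI tumors. A single BI tumor, replicate 9, exceeded vehicle replicate 2. The level of Hmmr fell by 34.1% (log2 fold change -0.60, standard error 0.148, adjusted p = 0.0105, edgeR). Nusap1, which stabilizes spindle microtubules, had 137, 106 and 136 CPM in the vehicle tumors and between 69.4 and 121 CPM (median 92.6) in the BI tumors. It did not pass the threshold (log2 fold change -0.39, adjusted p = 0.0804, edgeR), and BI replicates 4 and 9 lay within the vehicle range. Exons of Nusap1 overlap those of Oip5 on the other strand. Without vehicle replicate 1 or without vehicle replicate 3, 0 genes of the group passed, while 9.13% and 8.30% of all genes tested fell.

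The chromosomal passenger complex, which corrects faulty attachments of kinetochores and then organizes the cleavage furrow, was the role group with the smallest differences. None of its 4 genes passed the threshold, in the full data or with any tumor left out, and the median log2 fold change was -0.14. Of all genes tested 14.1% fell, and whether 0 of 4 differs from that share was not tested. None of the 4 genes had an unadjusted p below 0.05 in edgeR's quasi-likelihood test, where 20.3% of all genes tested were lower at that level. None of them passed with DESeq2 or limma-voom. Incenp, the scaffold of the complex, had 80.7, 66.3 and 74.5 CPM in the vehicle tumors and between 62.3 and 79.4 CPM (median 73.2) in the BI tumors. Of the BI tumors 5 lay within the vehicle range and replicate 5 below it (log2 fold change -0.03, standard error 0.0863, adjusted p = 0.850, edgeR). The kinase Aurkb had 75.6, 54.4 and 74.4 CPM in the vehicle tumors and between 43.2 and 68.9 CPM (median 60.4) in the BI tumors, again with only BI replicate 5 below the vehicle range (log2 fold change -0.22, adjusted p = 0.246, edgeR). Birc5 (survivin) had a log2 fold change of -0.23 and Cdca8 (borealin), whose exons overlap those of 9930104L06Rik on the other strand, of -0.06. The sign for Incenp and Cdca8 turned when vehicle replicate 1 (0.04 and 0.05) or BI replicate 5 (0.01 and 0.03) was left out. With 1 tumor left out, the log2 fold change ranged from -0.36 to -0.14 for Aurkb and from -0.35 to -0.12 for Birc5.

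Of the spindle checkpoint genes, 3 of 5 fell (Bub1, Bub1b and Mad2l1), against 14.1% of all genes tested. The median log2 fold change of the group was -0.31. Bub1b, whose product BUBR1 is part of the complex that inhibits APC/C, had 123, 88.8 and 105 CPM in the vehicle tumors and between 53.6 and 84.9 CPM (median 74.4) in the BI tumors. All BI tumors were below all vehicle tumors (log2 fold change -0.56, standard error 0.129, adjusted p = 0.00748, edgeR). The kinase Bub1 had a log2 fold change of -0.57, and Mad2l1, the MAD2 protein, one of -0.30, while the kinase Ttk (-0.31) did not pass. Bub3, the adaptor that carries BUB1 and BUBR1 to kinetochores, had 167, 146 and 152 CPM in the vehicle tumors and between 121 and 155 CPM (median 145) in the BI tumors. Of the BI tumors 3 lay below the vehicle range, replicate 5 farthest (log2 fold change -0.12, standard error 0.0757, adjusted p = 0.253, edgeR). With 1 tumor left out, the log2 fold change of Bub3 ranged from -0.16 to -0.07. Without vehicle replicate 1 or without vehicle replicate 3, 1 gene of the group fell, Bub1b, while 9.13% and 8.30% of all genes tested fell.

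At the centromere and kinetochore 5 of 7 genes fell, against 14.1% of all genes tested, and the median log2 fold change of the group was -0.39. The largest difference was in Cenpf, a large coiled-coil protein of the outer kinetochore, with 317, 245 and 309 CPM in the vehicle tumors and between 142 and 204 CPM (median 181) in the BI tumors. No BI tumor reached the lowest vehicle tumor, and the level fell by 38.6% (log2 fold change -0.70, standard error 0.119, adjusted p = 0.00124, edgeR), the smallest p of the 45 genes. Cenpe, the kinesin that moves chromosomes to the metaphase plate, followed with -0.60, also without overlap, and Cenpa, the histone H3 variant that marks centromeres, had -0.37. In the NDC80 complex, which holds microtubule ends, Ndc80 (-0.39) and Spc24 (-0.44) fell, whereas Spc25 (-0.34) and Nuf2 (-0.33) did not pass. Nuf2 had 82.2, 56.8 and 69.5 CPM in the vehicle tumors and between 39.4 and 72.7 CPM (median 55.1) in the BI tumors, and 3 BI tumors lay within the vehicle range (adjusted p = 0.135, edgeR). With 1 tumor left out, its log2 fold change ranged from -0.45 to -0.19, and Nuf2 passed without BI replicate 9 (adjusted p = 0.0413, edgeR). That 2 of the 4 subunits passed and 2 did not was no sign that they differed from each other, which was not tested. Leaving out vehicle replicate 1 or 3, or BI replicate 6 or 7, 2 genes of the group fell, and without BI replicate 8, 3 did. Of all genes tested, between 8.30% and 13.3% fell in these cases.

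The 4 genes of anaphase onset lay just outside the threshold in edgeR's quasi-likelihood test, in which 14.1% of all genes tested fell. All 4 had an unadjusted p below 0.05 in the same test, where 20.3% of all genes tested were lower at that level. The median log2 fold change of the 4 was -0.45, as in mitotic entry, and their adjusted p ranged from 0.0503 to 0.0686 (edgeR). All 4 fell with DESeq2 and 2 with limma-voom, against 15.4% and 15.0% of all genes tested. Cdc20, the activator of APC/C, had 89.8, 66.0 and 75.9 CPM in the vehicle tumors and between 35.8 and 66.2 CPM (median 59.1) in the BI tumors, with BI replicate 4 level with vehicle replicate 2 and the rest below (log2 fold change -0.47, standard error 0.165, adjusted p = 0.0503, edgeR). Ube2c, the ubiquitin-conjugating enzyme of APC/C, had 184, 143 and 171 CPM in the vehicle tumors and between 73.8 and 147 CPM (median 129) in the BI tumors. Again a single BI tumor, replicate 9, exceeded vehicle replicate 2 (log2 fold change -0.46, adjusted p = 0.0686, edgeR). Pttg1 (securin) had a log2 fold change of -0.44, with all BI tumors below all vehicle tumors, and Espl1 (separase) one of -0.29. Exons of Cdc20 and Ube2c overlap those of Elovl1 and Tnnc2 on the other strand. Without 1 tumor the number that fell was 3 (without BI replicate 5 or BI replicate 9), 2 (without BI replicate 4 or vehicle replicate 2) or 0. Of all genes tested, between 8.30% and 14.2% fell with 1 tumor left out.

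Among the genes of condensin and chromosome structure 4 of 7 fell, against 14.1% of all genes tested. The median log2 fold change of the group was -0.34. Top2a, the topoisomerase that untangles sister chromatids, had 1145, 849 and 1073 CPM in the vehicle tumors and between 518 and 768 CPM (median 678) in the BI tumors. All BI tumors lay below the vehicle tumors, and the level fell by 34.8% (log2 fold change -0.62, standard error 0.122, adjusted p = 0.00322, edgeR). It was also the most abundant of the 45 genes per length, with a mean of 151 CPM per kilobase of transcript, followed by Ube2c with 146, while the lowest was Espl1 with 6.36 (median of the 45 genes 27.9). The condensin subunits showed smaller differences, from -0.42 for Ncapg to -0.28 for Smc4. Of the 5, Ncapd2 (-0.37), Ncapg and Smc4 fell, and Ncaph (-0.34) and Smc2 (-0.28) did not pass, with adjusted p of 0.0546 and 0.0724 (edgeR). Ncaph did pass without a low-count filter and with edgeR's likelihood ratio test and DESeq2. Exons of Ncapg overlap those of Lcorl on the other strand, and those of Top2a overlap SNORA32 on the same strand. Mki67, which coats mitotic chromosomes and is the usual proliferation marker in pathology, had 647, 458 and 637 CPM in the vehicle tumors and between 379 and 556 CPM (median 470) in the BI tumors. Of the 6 BI tumors 3 lay within the vehicle range, and it did not pass (log2 fold change -0.32, standard error 0.131, adjusted p = 0.0886, edgeR). Without vehicle replicate 1 or vehicle replicate 3, 1 gene of the group fell (Top2a), and without vehicle replicate 2 or BI replicate 9 all 7 did. Of all genes tested, between 8.30% and 13.0% fell in these cases.

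Cytokinesis held both the largest difference of the 45 genes and one among the smaller. Anln (anillin), the scaffold of the contractile ring, had 478, 368 and 448 CPM in the vehicle tumors and between 161 and 283 CPM (median 246) in the BI tumors. The gap between the groups was wide, with the highest BI tumor well below the lowest vehicle tumor, and the level fell by 44.6% (log2 fold change -0.85, standard error 0.153, adjusted p = 0.00181, edgeR). Ect2, the exchange factor that activates RHOA at the furrow, fell with a log2 fold change of -0.73, again without overlap. Prc1, which bundles midzone microtubules, had -0.39 and did not pass. Racgap1, the partner of ECT2 in centralspindlin, had 116, 87.0 and 111 CPM in the vehicle tumors and between 68.7 and 106 CPM (median 89.2) in the BI tumors, and 3 BI tumors lay within the vehicle range (log2 fold change -0.21, standard error 0.128, adjusted p = 0.238, edgeR). Of the 4 genes, 2 fell, Anln and Ect2, against 14.1% of all genes tested, and both did so whichever tumor was left out.

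Set side by side, the classes of kinases, kinetochore, condensin and cytokinesis genes had 4 of 8, 5 of 7, 3 of 5 and 2 of 4 genes that fell, and median log2 fold changes of -0.45, -0.39, -0.34 and -0.56. Listed as kinases were Aurka, Bub1, Bub1b and Cdk1, which fell, and Plk1, Ttk, Melk and Aurkb, which did not pass in edgeR's quasi-likelihood test. Whether BUBR1, the product of Bub1b described above as part of an inhibitor of APC/C, acts as a kinase was not examined. Plk1 did pass with edgeR's likelihood ratio test and DESeq2. The values ranged from -0.57 to -0.22 in the kinases, from -0.70 to -0.33 in the kinetochore genes, from -0.42 to -0.28 in condensin and from -0.85 to -0.21 in cytokinesis. These ranges overlapped, and differences between the classes were not tested. Of all genes tested 14.1% fell. Without vehicle replicate 1, as without vehicle replicate 3, the counts were 1, 2, 0 and 2, with 9.13% and 8.30% of all genes then falling. Kinetochore genes that fell numbered 2 without BI replicate 6 or 7 and 3 without BI replicate 8, and all 5 condensin genes fell without vehicle replicate 2 or BI replicate 9. Of all genes tested, between 11.0% and 13.3% fell in these cases.

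**Figure D3:**
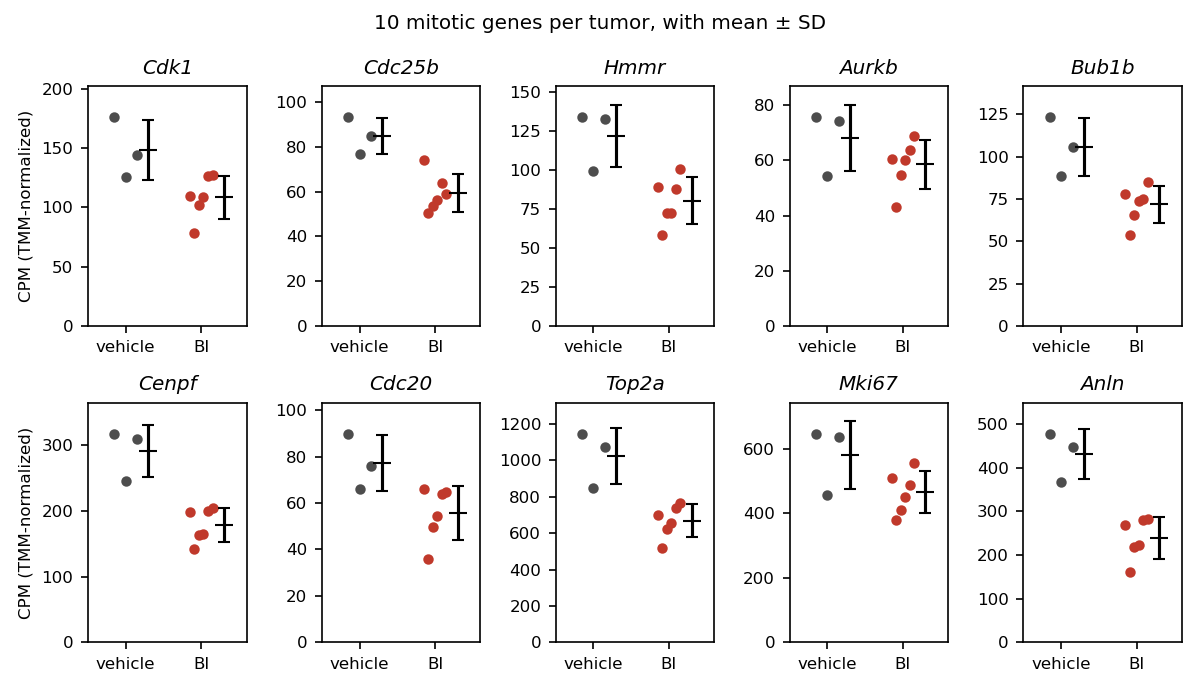
Level of 10 of the genes in each tumor (vertical axis, TMM-normalized CPM, from 0), with mean and SD of the 3 vehicle (gray) and 6 BI tumors (red). The groups do not overlap for Cdc25b, Bub1b, Cenpf, Top2a and Anln, and overlap for Cdk1, Hmmr, Aurkb, Cdc20 and Mki67.

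Because the genes shared a common order across tumors, their level relative to Mki67 within the same tumor was also described, a measure chosen after the values had been seen. Relative to Mki67, 15 of the other 44 genes were lower in every BI tumor than in every vehicle tumor (1.36% of all genes tested had this order), 1 was higher in every BI tumor, Cdca8 (14.8% of all genes tested), and 28 overlapped. The difference of the mean log2 ratios was -0.56 for Anln, -0.42 for Ect2, -0.39 for Cenpf, -0.38 for Cdc25c, -0.30 for Top2a and -0.30 for Hmmr. At the other end it was 0.29 for Incenp, for which the groups overlapped, and 0.25 for Cdca8. By role, 4 of 5 spindle assembly genes, 3 of 9 of mitotic entry, 2 of 4 of cytokinesis, 2 of 7 of the kinetochore, 2 of 5 of the checkpoint and 2 of 6 of chromosome structure were lower relative to Mki67 without overlap, and 0 of 4 of both the passenger complex and anaphase onset. Since Mki67 itself was lower on average in BI tumors, a gene with the same level in both groups has a higher ratio with BI. Overlap also depends on the spread of the ratio, which is small for genes that vary with Mki67. Ncapg (vehicle SD 0.051) had no overlap at -0.11, while Cdc25b (vehicle SD 0.172) overlapped at -0.21. The share over all genes, many of which do not vary with Mki67, is therefore not a like comparison.

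**Figure D4:**
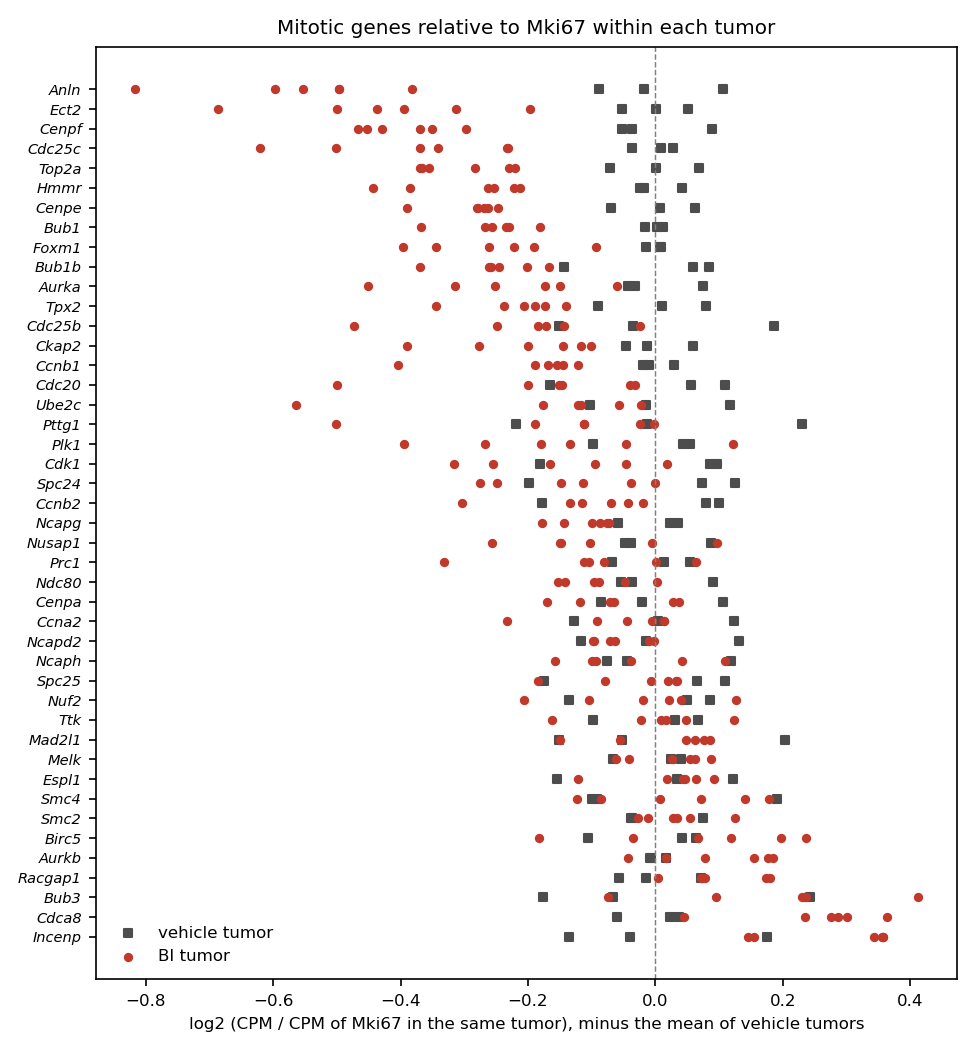
The log2 ratio of each gene to Mki67 in the same tumor, minus the mean of the vehicle tumors (horizontal axis), for vehicle (squares) and BI tumors (circles), with genes in the order of the difference. The circles of Anln lie farthest left of the squares, and those of Cdca8 lie right of its squares.

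Other genes of mitosis, listed by function and not for how they moved, were examined in 6 lists. Of their 93 genes 31 fell and 1 rose, against 14.1% and 14.6% of all genes tested, and their median log2 fold change was -0.21. The count that fell was 12 without vehicle replicate 1 and 13 without vehicle replicate 3, where 9.13% and 8.30% of all genes tested fell. Condensin II and cohesin genes fell in 7 of 14 cases (median -0.21), led by Ncapg2, a condensin II subunit (-0.60, adjusted p = 0.000645, edgeR), and Sgol2, the shugoshin that protects centromeric cohesin (-0.69, adjusted p = 0.00214, edgeR). The cohesin subunit Rad21, the most abundant of that list, fell with -0.30. Further centromere and kinetochore genes fell in 13 of 31 cases (median -0.35), with the smallest p for Hjurp (-0.38), the chaperone that loads CENP-A, and Oip5 (-0.60), a subunit of the Mis18 complex that primes centromeres for it. Without vehicle replicate 1 this list had 2 genes that fell and without vehicle replicate 3 it had 3, against the same 9.13% and 8.30%. Other mitotic kinases and regulators fell in 7 of 14 cases (median -0.32). They were led by Bora (-0.62), an activator of PLK1, and Mastl (-0.71), the Greatwall kinase, and included Cks1b (-0.51), a small CDK-binding protein. Without vehicle replicate 1 or vehicle replicate 3, 2 genes of this list fell, again against 9.13% and 8.30% of all genes tested.

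In the remaining 3 lists the share of genes that fell was closer to that of all genes tested, 14.1%. Of 16 APC/C subunits and regulators 1 fell, Cdc27 (-0.29, adjusted p = 0.00242, edgeR), and the median was -0.05. Without vehicle replicate 2, 3 of them fell, against 11.0% of all genes tested. The next smallest p over all tumors was that of Anapc7 (-0.16, not past the threshold), and the most abundant gene, Anapc5, had -0.04. Among other cytokinesis and spindle pole genes 1 of 7 fell, although 5 had an unadjusted p below 0.05 and the median was -0.36. It was the spindle pole protein Aspm (-0.66, adjusted p = 0.00142, edgeR), while Kif23, the kinesin of centralspindlin, had -0.39 and the abundant GTPase Rhoa 0.05. The count was 2 without BI replicate 4, 3 without vehicle replicate 2 and 4 without BI replicate 9. Of all genes tested 13.3%, 11.0% and 13.0% fell in these fits. Of 11 genes of the B-Myb and DREAM complexes (median -0.10) 2 fell, Tfdp2, a dimer partner of E2F factors (-0.49), and Lin9, a subunit of the MuvB core (-0.27, named after its value was seen), and 1 rose, Rbl2, the p130 pocket protein of DREAM in resting cells (0.28, adjusted p = 0.0204, edgeR). Rbl2 did not pass when any vehicle tumor was left out. In this list 2 genes rose without BI replicate 4, against 13.8% of all genes tested. With vehicle replicate 1 or 3 or BI replicate 7 left out, 1 gene fell, against 8.30% to 11.5% of all genes tested. The chaperone Rbbp4, the most abundant, had -0.12, and Mybl2 (B-Myb itself, named after its value was seen) had 0.43 with an adjusted p of 0.0770 (edgeR), the highest value of the list.

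Markers of cell types were examined in the same tumors. Of 9 epithelial markers 2 fell (against 14.1% of all genes tested), Krt18 (-0.50, adjusted p = 0.00636, edgeR) and Krt8 (-0.28, adjusted p = 0.0444, edgeR), keratins of simple epithelia and the most abundant of that list, while 5 of the 9 had positive log2 fold changes, none past the threshold, and the median of the list was 0.11. Epcam and Cdh1, further defining markers of carcinoma cells, were low throughout, between 1.5 and 10.3 CPM and between 12.5 and 36.7 CPM, with log2 fold changes of 1.06 (unadjusted p = 0.0370 and adjusted p = 0.0987, edgeR, past the study's cutoffs) and 0.16. Cldn4, a tight junction protein, lay past the same cutoffs in the other direction (-0.67, unadjusted p = 0.0345 and adjusted p = 0.0939, edgeR), with all 6 BI tumors below every vehicle tumor. The summed level of the 9 markers was 1126, 1190 and 965 CPM in the vehicle tumors and between 758 and 967 CPM (median 816) in the BI tumors, with 5 BI tumors below every vehicle tumor (exact permutation test, two-sided, p = 0.0476). A count of 1 in place of 2 was found without BI replicate 6, 7, 8 or 9 or vehicle replicate 1 or 2. Of all genes tested, between 9.13% and 13.3% fell in these fits. The summed level of the 45 mitotic genes was 7166, 5371 and 6697 CPM in the vehicle tumors and between 3537 and 5436 CPM in the BI tumors. Divided by the epithelial sum, a measure chosen after the values had been seen, it was 6.36, 4.51 and 6.94 in the vehicle tumors (mean 5.94, SD 1.27) and between 3.66 and 6.91 in the BI tumors (mean 5.59, SD 1.08), with 5 of 6 BI tumors inside the vehicle range. Both the epithelial sum and this ratio rest mainly on Krt8 and Krt18, the markers that fell.

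All 5 pan-leukocyte markers rose, against 14.6% of all genes tested (sum 1.43 times the vehicle mean, led by Laptm5 and Ptprc, with Lcp1 the largest part of the sum), as did all 7 of T and NK cells (2.29 times, led by Cd3e and Cd2, with Nkg7 the most abundant per length) and all 6 of macrophages (1.90 times, led by C1qb and Csf1r, with C1qa the most abundant per length), while 3 of 4 neutrophil markers fell, against 14.1% of all genes tested (0.455 times, led by S100a9, also the most abundant, and Cxcr2). For these 4 sums all BI tumors lay outside the range of the vehicle tumors (exact permutation test over all 84 divisions, two-sided, p = 0.0238, the smallest that this two-sided form can give). Of 7 fibroblast markers 1 rose, against 14.6% of all genes tested, Col1a2 (sum 1.77 times, with Col1a1 the most abundant), and of 5 endothelial markers 2, Kdr and Cdh5 (1.18 times, with Eng the most abundant). All 7 fibroblast markers had positive log2 fold changes, and 3 were higher at the study's cutoffs, against 9.59% of all genes tested. The fibroblast sum was between 2527 and 5682 CPM in the BI tumors, 5 of which lay above every vehicle tumor, and between 1900.2 and 3307 CPM in the vehicle tumors (exact permutation test, two-sided, p = 0.0476). The endothelial sum was also higher in all BI tumors, between 419 and 495 CPM, than in the vehicle tumors, between 364 and 386 CPM (exact permutation test, two-sided, p = 0.0238). The fibroblast count was 3 without BI replicate 5, BI replicate 6 or vehicle replicate 3 and 0 without any of the other tumors. The endothelial count was 0 without vehicle replicate 3, 1 without vehicle replicate 1 or 2 and 4 without BI replicate 8. With 1 tumor left out, between 9.43% and 14.5% of all genes tested rose. None of the 3 adipocyte (smallest p for Fabp4 and Adipoq) and 3 skeletal muscle markers (Ckm and Acta1) passed in edgeR's quasi-likelihood test over all 9 tumors, of which 1 and 0 had an unadjusted p below 0.05. Without BI replicate 4 or BI replicate 6, 1 adipocyte marker rose in the same test. The adipocyte sum was 2.24 times the vehicle mean, between 46.3 and 227 CPM in the BI tumors, 5 of which lay above every vehicle tumor, and between 30.9 and 50.2 CPM in the vehicle tumors, a difference that did not pass (exact permutation test, two-sided, p = 0.0714). The skeletal muscle sum was 1.05 times the vehicle mean (exact permutation test, two-sided, p = 0.762). No marker was at 0 in all 9 tumors. The part of these differences in the lower level of the mitotic genes was not tested, and which cells carried the mitotic RNA was not measured.

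**Figure D5:**
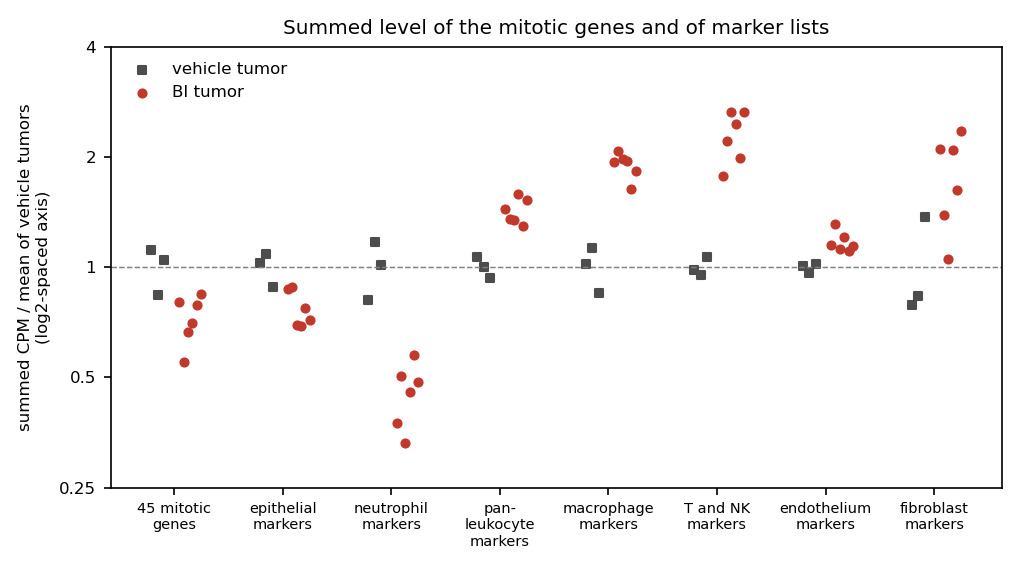
Summed CPM of the 45 mitotic genes and of 7 marker lists, divided by the mean of the vehicle tumors (vertical axis, log2-spaced), for vehicle (squares) and BI tumors (circles). The mitotic and epithelial sums lie below 1 in all BI tumors, the neutrophil sum lies lowest, and the pan-leukocyte, macrophage and T and NK cell sums lie above 1 in all BI tumors.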

How the data were processed

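The authors mapped the paired reads with STAR to assembly mm9, discarding reads that mapped to several places, and used QuasR to count, for each RefSeq gene, reads that began in any of its exons. The deposited values are raw counts, not normalized, and the deposited gene length in bases was used for CPM per kilobase. Whether counting used the strand is not given in the sources used here. All 45 symbols were matched through Entrez identifiers.

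All 13966 genes that passed filterByExpr (minimum count 10, minimum total 15) were fitted with edgeR 4.0.16 in R 4.3.3 (TMM, quasi-likelihood F test, no covariate), with Benjamini-Hochberg adjustment over all of them. The standard error is the log2 fold change divided by the signed root of F. Log2 CPM used a prior count of 2. The scripts were tested on simulated data. Alternatives were RLE or library size scaling, no filter, a filter of 1 CPM in 3 tumors, edgeR's likelihood ratio test, DESeq2 1.42.0, limma-voom (limma 3.58.1), a prior count of 0.5, and leaving out each tumor. Replicates are separate tumors. No 2 libraries agreed within sampling noise (chi-square per gene at least 8.57).

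The 45 genes and all lists were chosen with earlier results of these data known. Values in each vehicle tumor, and the lowest, median and highest BI tumor, are given for Cdk1, Mki67, Top2a and the genes with the smallest and largest p in each role group. From other lists, the 2 smallest p and the most abundant gene per kilobase are named. The rule for printed promoters was narrowed, after the windows had been seen, to matches before the start site. Of the marker genes, 1 (Ly6g) was not analysed here, and the result of 1 marker list is not reported here.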

Additional observations from a re-analysis of the deposited data

Results flagged for a closer look

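In 6 BI tumors, the log2 CPM of Bub3 in BI replicate 5 stood apart from the others. Its gap to the next lowest tumor was 0.668 of the whole range of the group on that scale, above Dixon's critical value for 6 samples. This was 1 of 55 groups of values tested, and chance alone marks about 1 in 20.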

How the results depend on the processing

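Without a low-count filter, with RLE, with a filter of 1 CPM, with edgeR's likelihood ratio test, DESeq2 and limma-voom, 26, 23, 23, 30, 30 and 25 of the 45 genes fell, and with library size scaling 21, which lost Cenpa and Ndc80. None of the 45 rose under any of these alternatives, and between 9.91% and 15.4% of all genes tested fell under them. The median of the 45 stayed between -0.42 and -0.40. With library size scaling 3 centromere and kinetochore genes fell. Anaphase onset genes that fell numbered 2 without a filter and with limma-voom and 4 with the likelihood ratio test and DESeq2. Among other lists, 2 APC/C genes fell with DESeq2 and limma-voom, 2 B-Myb and DREAM genes rose with the likelihood ratio test and DESeq2, and 3 and 2 other cytokinesis genes fell with these tests. Of the markers, 1 epithelial gene fell with the 1 CPM filter and 1 rose with DESeq2, 3 fibroblast genes rose without a filter and with the likelihood ratio test and 2 with limma-voom, 4 endothelial genes rose with the likelihood ratio test and DESeq2, and 1 adipocyte gene with the likelihood ratio test. The cause of these differences was not tested.

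Leaving out each tumor in turn gave between 7 and 32 genes that fell, between 4 and 14 at the study's cutoffs and a median between -0.52 and -0.31. In these fits between 8.30% and 14.2% of all genes tested fell and between 9.43% and 14.5% rose. The share of all genes at the study's cutoffs is not given for them. The counts ranged from 1 to 6 for mitotic entry, 0 to 5 for spindle assembly, 1 to 3 for the checkpoint, 2 to 6 for the centromere and kinetochore, 0 to 3 for anaphase onset and 1 to 7 for condensin and chromosome structure. They were 0 for the passenger complex and 2 for cytokinesis throughout. In the other lists, genes that fell numbered 1 to 3 for APC/C, 5 to 8 for condensin II and cohesin, 2 to 15 for the centromere and kinetochore (0 to 1 rose), 2 to 7 for kinases and regulators, 1 to 2 for B-Myb and DREAM (0 to 2 rose) and 1 to 4 for cytokinesis. Epithelial markers fell in 1 to 2 cases and rose in 0 to 1, and rises numbered 0 to 3 for fibroblasts, 0 to 4 for endothelium and 0 to 1 for adipocytes. Of single genes, signs turned for Incenp (0.041 without vehicle replicate 1 and 0.01 without BI replicate 5, range -0.10 to 0.041 over all tumors left out) and for Cdca8 (0.048 and 0.03, range -0.19 to 0.048). The range was -0.52 to -0.22 for Ccna2, -0.42 to -0.19 for Melk and -0.43 to -0.20 for Ttk. It was -0.44 to -0.21 for Spc25, -0.39 to -0.18 for Espl1 and -0.33 to -0.13 for Racgap1. With 3 vehicle tumors the two-sided exact permutation test used here cannot give a p below 0.0238. No paired analysis was made, because each mouse received only 1 of the 2 treatments and the labels name no pairs of mice.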
